A study of Rattus norvegicus with 24 samples.

Results

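The 8 genes Ifi47, Gbp2, Igtp, Irgm, Irf1, Psmb8, Psmb9 and Tap1, all induced mainly by interferon gamma, were followed in nose and blood of rats that breathed formaldehyde. They were chosen by name from a list of interferon gamma target genes, with earlier results of these data known. Each was represented by 1 probe set of its own out of 29214 probe sets, of which 15310 carried a single gene symbol. All 8 were bright enough to be tested in both tissues, where 21910 probe sets were tested in nose and 21910 in blood. At 7 days all 8 genes were lower in the exposed nose, 6 of them past the test, while in blood none passed the test and 7 of the 8 differences lay above 0. Of all probe sets at 7 days, 60.4% lay below 0 and 7.84% were called lower in nose, and 38% lay below 0 in blood. The difference between the tissues itself passed the test for 7 of the 8 genes at 7 days and for 2 of the 8, Ifi47 and Gbp2, at 28 days. Of all probe sets, 5.65% were called lower in nose than in blood at 7 days and 3.11% at 28 days.

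The animals were male Fischer rats, approximately 8 weeks old at the start and of no stated genetic modification. The exposed groups inhaled 2 ppm formaldehyde, made as vapour from isotope-labelled paraformaldehyde, by the nose alone, 6 hours daily, for 7 or 28 days. The control groups sat in nose-only tubes with room air for equally long, so that restraint in the tube was common to all groups. Tissue of the maxilloturbinate, a scroll of bone and mucosa in the nasal passage, gave the nose samples, and white blood cells separated from heart blood in cell preparation tubes gave the blood samples. Total RNA was hybridised to Affymetrix arrays, 3 per group in 8 groups, 24 arrays in all. The labels do not say that the replicates came from separate animals, so the p-values measure the spread between these samples, and the number of arrays limits their precision.

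Interferon gamma is a cytokine made mainly by activated T cells and natural killer cells. Its receptor signals through the Janus kinases, and promoters that respond to it often carry gamma activated sites. Irf1, itself switched on by interferon gamma, is a transcription factor that binds interferon stimulated response elements and carries the response on to further genes. Ifi47, Igtp and Irgm belong to the immunity-related GTPases and Gbp2 to the guanylate-binding proteins; in mice both families act on the vacuoles in which intracellular microbes live. Psmb8 and Psmb9 are catalytic subunits of the immunoproteasome, the form of the proteasome that favours peptides for MHC class I. Tap1 forms, together with Tap2, the transporter that carries those peptides into the endoplasmic reticulum.

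The promoters of the 8 genes were read from RefSeq (build GRCr8) to show which of them carry the letters of these 2 kinds of element close to the start of transcription. Each window ran from 250 bases before the start to 50 bases after it, and both strands were searched. The gamma activated site, searched as TTCNNNGAA, occurred in 5 of the 8 windows, against 8.87% of the 33469 promoters in the table. The interferon stimulated response element, searched as GAAA, any 2 bases and GAAA again, occurred in 5 of the 8 windows as well, against 3.92% of all promoters. The 2 searches share the letters GAA, but no match of one overlapped a match of the other in the 8 windows. A match describes letters only, and binding was not measured here.

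Igtp and Irgm had the pair in a row, a gamma activated site followed after 2 bases by a response element. That arrangement was searched for after it had been seen in these windows, and was found in 7 promoters of the table, 0.0209% of them. Stretches of both are shown, with both elements in capitals amid their neighbouring bases, written along the strand of the gene.
Igtp, chr10:42874903-42874983, plus strand: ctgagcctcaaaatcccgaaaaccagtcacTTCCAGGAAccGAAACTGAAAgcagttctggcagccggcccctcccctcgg
Irgm, chr10:33742573-33742653, minus strand: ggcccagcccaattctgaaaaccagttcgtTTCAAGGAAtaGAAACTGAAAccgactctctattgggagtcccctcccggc

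Irf1 carried a gamma activated site 142 bases before its start and no response element in the window. Gbp2 and Tap1 carried a response element each, 31 and 121 bases before the start, and no gamma activated site. In both of these the element lies on the strand opposite to the gene and so reads as its reverse complement. The capitals mark the element in each stretch.
Irf1, chr10:38417763-38417831, plus strand: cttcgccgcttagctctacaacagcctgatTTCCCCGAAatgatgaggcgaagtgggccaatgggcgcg
Gbp2, chr2:234005666-234005735, plus strand: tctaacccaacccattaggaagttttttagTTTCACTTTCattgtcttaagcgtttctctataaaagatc
Tap1, chr20:4668625-4668694, minus strand: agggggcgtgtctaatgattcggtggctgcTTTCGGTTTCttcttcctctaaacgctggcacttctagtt

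Ifi47 had 2 gamma activated sites, 212 and 96 bases before the start, and Psmb8 had one 245 bases before and a response element 4 bases before. The window of Psmb9 held neither set of letters. On the map of the reference (GRCr8), Psmb8, Tap1 and Psmb9 stand side by side on chromosome 20 next to Tap2. Psmb9 and Tap1 run away from each other with 456 bases between their starts, so that their windows overlap by 44 bases. Irgm and Ifi47 are neighbours on chromosome 10 with only RGD1559575 between them, Igtp and Irf1 lie elsewhere on chromosome 10, and Gbp2 sits among other guanylate-binding genes on chromosome 2. The GTPases belong to families of similar genes, and the part that RNA of relatives may have in their probe sets was not tested.

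Levels are log2 of the deposited array intensity, differences are the exposed mean minus the control mean on that scale with their standard error, and p-values are limma's, with Benjamini-Hochberg adjustment across every probe set tested in the comparison. A gene was called past the test at an adjusted p below 0.05. The median intensity of a nose array was 305 to 312 at 7 days and 163 to 172 at 28 days, and that of a blood array 175 to 181 at 7 days and 113 to 119 at 28 days. Levels were therefore compared within a day, and the day of sampling and the scale of the arrays cannot be told apart. No 2 arrays held identical values. Of the 10 respiratory epithelial markers 8 had a probe set of their own, and 7 were above the filter in nose and 5 in blood. All 13 T cell markers were above it in blood, against 9 in nose. The 9 endothelial markers with a probe set and 7 of 14 olfactory markers were above it in blood as well. Epcam, Scgb1a1 and Bpifa1 were among the epithelial markers under the filter in blood.

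In unexposed animals the genes were higher in white blood cells than in the nose, although the typical probe set was dimmer on the blood arrays; this difference in level was not tested. At 7 days Ifi47 averaged 9.77 ± 0.15 in control noses and 11.18 ± 0.23 in control blood (SD, n = 3 each), and Psmb8 averaged 8.44 ± 0.11 in control noses and 10.02 ± 0.14 in control blood (SD, n = 3 each). Igtp was the exception at that day, with 8.02 ± 0.13 in control noses and 8.03 ± 0.09 in control blood (SD, n = 3 each), which is within the spread of the replicates. At 28 days all 8 control means were higher in blood, Igtp with 6.89 ± 0.05 in noses and 7.29 ± 0.13 in blood (SD, n = 3 each). The filter on dim probe sets lay at 6.61 in nose and 5.96 in blood, and Igtp in the 28 day noses was the member closest to it.

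**Figure D1:**
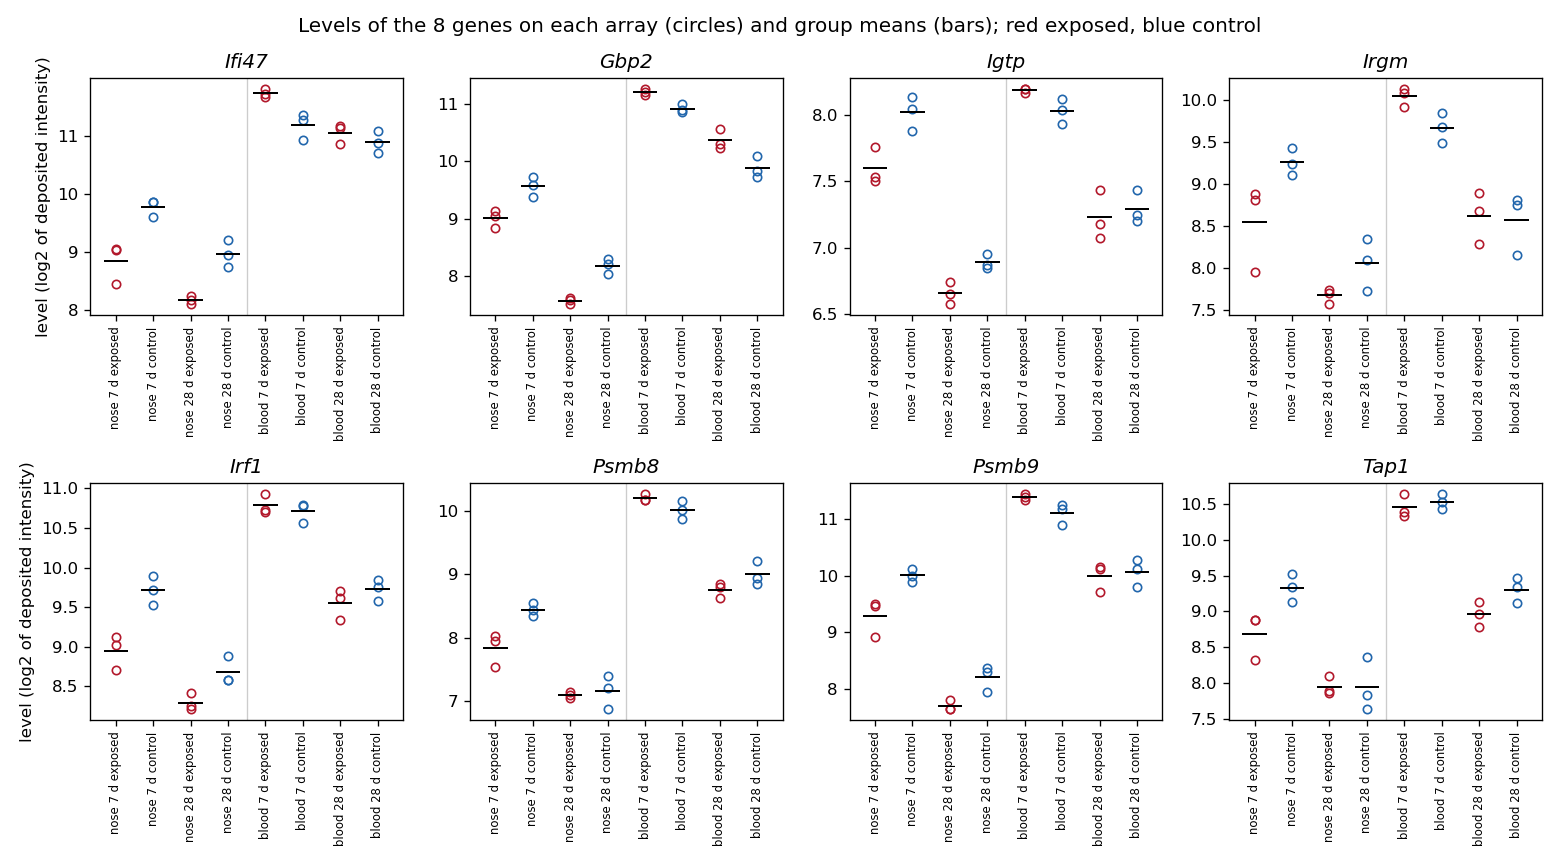
Level of each of the 8 genes (log2 of the deposited intensity, vertical axis, scaled for each gene) on every array, with exposed arrays in red and control arrays in blue and a bar at each group mean. In nose at 7 days the 3 exposed arrays of every gene lie below its 3 control arrays, and the control means in blood lie above those in nose of the same day, with Igtp at 7 days nearly level.

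The nose at 7 days held the clearest change. Ifi47, Gbp2, Igtp, Irf1, Psmb8 and Psmb9 fell, Irgm and Tap1 had differences of like size that did not pass the test, and no member was higher. Of all probe sets, 7.84% were called lower, 8.43% higher and 16.3% in either direction, beside 6 of 8 members called lower. Because the members were chosen with earlier results of these data known, that comparison is a description only. The difference was below 0 for 8 of the 8 genes and for 60.4% of all probe sets. All 3 exposed arrays lay below all 3 control arrays for 8 of the 8 genes, as they did for 32.4% of all probe sets. The median difference of the 8 was -0.68, against -0.05 over all probe sets.

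Among the GTPases, Ifi47 had the largest difference of the 8. Its level was 8.44, 9.04 and 9.05 in exposed noses, against 9.86, 9.59 and 9.85 in control noses, a difference of -0.92 ± 0.17 (SE, limma adjusted p = 0.00771), or 0.527 of the control intensity. The groups did not overlap, and the first exposed array was the lowest. Gbp2 measured 8.84, 9.04 and 9.14 in exposed noses, against 9.58, 9.37 and 9.73 in control noses, a difference of -0.55 ± 0.11 (adjusted p = 0.0116). Igtp measured 7.50, 7.75 and 7.53 in exposed noses, against 8.14, 7.87 and 8.04 in control noses, a difference of -0.42 ± 0.09 (adjusted p = 0.0164). For both, the gap between the groups was narrow, the second control array being the lowest of its group. Irgm measured 7.95, 8.88 and 8.81 in exposed noses, against 9.43, 9.11 and 9.24 in control noses, and its difference of -0.72 ± 0.23 did not pass (adjusted p = 0.0554). Its first exposed array lay far under the other 2, which gave Irgm the widest spread of any member in that group.

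The transcription factor Irf1 measured 8.71, 9.12 and 9.02 in exposed noses, against 9.89, 9.52 and 9.72 in control noses, a difference of -0.76 ± 0.14 (adjusted p = 0.00739). The groups lay clearly apart. Irf1 and Ifi47 were the members that passed in each of the 6 fits that left out 1 of the compared arrays.

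The genes of antigen processing followed the same course. Psmb9 measured 8.91, 9.51 and 9.47 in exposed noses, against 10.13, 9.90 and 10.01 in control noses, a difference of -0.71 ± 0.16 (adjusted p = 0.0167). Psmb8 measured 7.53, 7.94 and 8.03 in exposed noses, against 8.55, 8.33 and 8.44 in control noses, a difference of -0.61 ± 0.15 (adjusted p = 0.0221). Tap1, whose promoter window overlaps that of Psmb9 by 44 bases, measured 8.32, 8.88 and 8.88 in exposed noses, against 9.53, 9.12 and 9.34 in control noses. Its difference of -0.64 ± 0.20 fell just short (adjusted p = 0.0518). In all 3 the exposed arrays lay below the control arrays.

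The first exposed array was the lowest of its group for 8 of the 8 genes, on average -0.99 from the control mean, against -0.49 and -0.52 for the other 2 exposed arrays. The number of members past the test was 2 without that array, 2 without the first control array and 3 without the third control array. Leaving out the second exposed array gave 7 members past the test.

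At 28 days no gene was called in nose, and 7 of the 8 differences were smaller in size than at 7 days, Gbp2 being the exception (-0.61 at 28 days, against -0.55 at 7 days). In the limma fit 0 of the 8 genes passed, as did 0.00456% of all probe sets, 1 in number, and with the replicate numbers as a block none at all. At an unadjusted p below 0.05 stood 5 of the 8 genes, against 15.4% of all probe sets. Of the 8 differences 7 lay below 0, as did 47.3% of all, and for 5 genes (Ifi47, Gbp2, Igtp, Irf1 and Psmb9) the exposed arrays lay wholly below the control arrays, as they did for 8.7% of all. The median of the 8 was -0.39, against 0.01 over all probe sets.

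Ifi47 and Gbp2 had the largest differences of the 8 at 28 days. Ifi47 measured 8.24, 8.17 and 8.10 in exposed noses, against 9.19, 8.74 and 8.95 in control noses, a difference of -0.80 ± 0.17 (adjusted p = 0.106). Gbp2 measured 7.51, 7.62 and 7.58 in exposed noses, against 8.29, 8.04 and 8.21 in control noses, a difference of -0.61 ± 0.11 (adjusted p = 0.0945). In both genes the exposed arrays were tightly grouped, and the control arrays spread more widely. Gbp2 passed the test without the first control array (-0.55, adjusted p = 0.0334) or without the second (-0.68, adjusted p = 0.0492).

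Psmb9 measured 7.64, 7.80 and 7.65 in exposed noses, against 8.38, 8.30 and 7.95 in control noses, a difference of -0.51 ± 0.16 (adjusted p = 0.184). Irf1 measured 8.41, 8.25 and 8.21 in exposed noses, against 8.89, 8.58 and 8.58 in control noses, a difference of -0.39 ± 0.14 (adjusted p = 0.215). Igtp differed by -0.23 ± 0.09 (adjusted p = 0.271). In these 3 genes too the exposed arrays lay under the control arrays, by a smaller step than at 7 days.

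The other 3 genes overlapped between the groups at 28 days. Irgm measured 7.74, 7.57 and 7.71 in exposed noses, against 8.35, 7.73 and 8.10 in control noses, a difference of -0.39 ± 0.23 (adjusted p = 0.437). Psmb8 differed by -0.06 ± 0.15 (adjusted p = 0.874), and Tap1 by 0.0053 ± 0.20 (adjusted p = 0.992). Tap1 measured 8.10, 7.87 and 7.89 in exposed noses, against 8.36, 7.84 and 7.64 in control noses, so that its exposed arrays fell within the range of its controls. Of the neighbours on chromosome 20, Psmb9 was separated by group at 28 days, and Psmb8 and Tap1 were not. None of them passed the test, and whether their differences are unlike each other was not tested. The first control array was the highest of its group for 7 of the 8 genes.

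The change between the days was itself tested in the nose, as the 28 day difference minus the 7 day difference. In the limma fit 0 of 8 genes passed, against 0.1% of all probe sets, and 2 of 8 stood at an unadjusted p below 0.05, against 13.6% of all. Those 2 were Tap1, at 0.65 ± 0.28 (adjusted p = 0.357), and Psmb8, at 0.54 ± 0.21 (adjusted p = 0.330), and 1 of the 8 values lay below 0, as did 42.4% of all. The 2 days were therefore not shown to differ for any member.

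In blood at 7 days the differences pointed the other way, without a call. In the limma fit 0 of 8 genes passed, against 0.475% of all probe sets, and 2 of 8 stood at an unadjusted p below 0.05, against 15.1% of all. All 3 exposed arrays lay above all 3 control arrays for 6 of the 8 genes, as they did for 19.5% of all probe sets. The median of the 8 was 0.23, against 0.04 over all probe sets. Differences below 0 made up 38% of all probe sets and 1 of the 8, Tap1.

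Ifi47 was the member with the largest value. It measured 11.72, 11.80 and 11.67 in exposed blood, against 11.36, 10.92 and 11.27 in control blood, a difference of 0.55 ± 0.13 (adjusted p = 0.0736). Irgm measured 10.08, 10.13 and 9.92 in exposed blood, against 9.68, 9.49 and 9.84 in control blood, a difference of 0.37 ± 0.18 (adjusted p = 0.368). Gbp2 measured 11.25, 11.20 and 11.15 in exposed blood, against 11.00, 10.85 and 10.89 in control blood, a difference of 0.29 ± 0.11 (adjusted p = 0.241). In each of these GTPases the exposed arrays lay above the control arrays, whereas in the nose they lay below them. Igtp differed by 0.15 ± 0.10 (adjusted p = 0.514), also without overlap.

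Among the antigen processing genes, Psmb9 measured 11.39, 11.45 and 11.33 in exposed blood, against 11.19, 10.90 and 11.25 in control blood, a difference of 0.28 ± 0.15 (adjusted p = 0.399). Psmb8 differed by 0.19 ± 0.11 (adjusted p = 0.455), with the groups just apart. Irf1 measured 10.73, 10.93 and 10.70 in exposed blood, against 10.79, 10.56 and 10.78 in control blood, a difference of 0.07 ± 0.11 (adjusted p = 0.827). Tap1 measured 10.33, 10.63 and 10.39 in exposed blood, against 10.52, 10.43 and 10.64 in control blood, a difference of -0.08 ± 0.12 (adjusted p = 0.820). Irf1 and Tap1 overlapped between the groups. The second control array was the lowest of its group for 8 of the 8 genes.

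At 28 days in blood Gbp2 rose and no other member passed the test. Gbp2 measured 10.23, 10.56 and 10.30 in exposed blood, against 9.72, 10.09 and 9.82 in control blood, a difference of 0.48 ± 0.11 (adjusted p = 0.0255), or 1.40 times the control intensity. The 3 exposed arrays lay above the 3 control arrays. That is 1 of 8 genes called higher, against 3.95% of all probe sets called higher, 1.31% lower and 5.27% in either direction. Exposed arrays wholly above the control arrays occurred in 1 of the 8 genes and in 8.77% of all probe sets. Its call was lost without the first control array (0.40), the third control array (0.45) or the second exposed array (0.38), and with only the 6 compared arrays in the fit (adjusted p = 0.167).

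The other 7 genes ranged on either side of 0, and 5 of the 8 differences lay below it, as did 55.8% of all. Tap1 measured 9.13, 8.78 and 8.97 in exposed blood, against 9.12, 9.46 and 9.33 in control blood, a difference of -0.35 ± 0.12 (adjusted p = 0.140) with a slight overlap. Psmb8 measured 8.79, 8.63 and 8.85 in exposed blood, against 8.94, 8.85 and 9.22 in control blood, a difference of -0.24 ± 0.11 (adjusted p = 0.259). Ifi47 measured 11.13, 10.85 and 11.16 in exposed blood, against 10.70, 11.07 and 10.88 in control blood, a difference of 0.16 ± 0.13 (adjusted p = 0.614). Psmb8 was the single member whose exposed arrays all lay below its control arrays, by a margin smaller than the printed decimals, as was so for 9.03% of all probe sets, and the groups of Ifi47 overlapped. Irf1, Psmb9, Igtp and Irgm differed by -0.17, -0.07, -0.06 and 0.05, and all overlapped. The second exposed array was the lowest of its group for 7 of the 8 genes and the highest for Gbp2. In blood, too, the 2 days were not shown to differ: the limma fit called 0 of 8 genes and 0% of all probe sets, and 1 of 8 (Psmb8, -0.43 ± 0.15, adjusted p = 0.311) stood at an unadjusted p below 0.05, against 11.5% of all. Of these day differences 7 of 8 lay below 0, as did 62.7% of all.

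**Figure D2:**
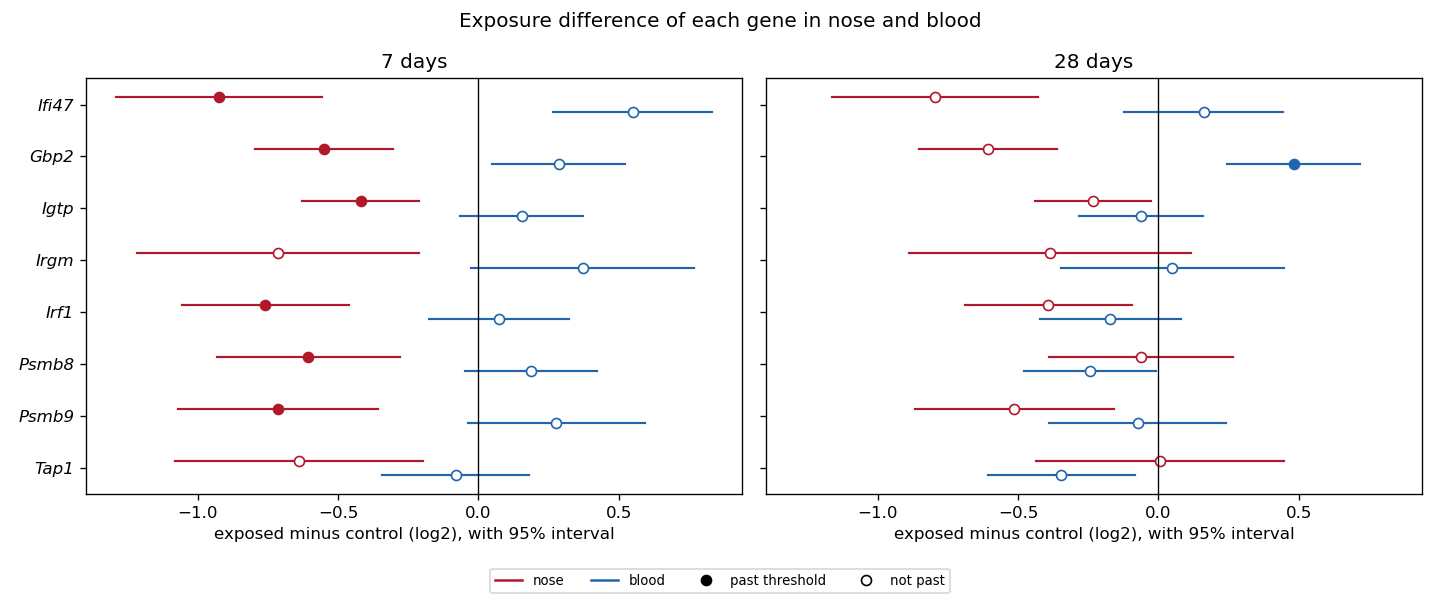
Exposed minus control difference of each gene (log2, horizontal axis) with its 95% interval, in nose (red, upper line of each pair) and blood (blue, lower line) at 7 days and 28 days, filled where the adjusted p was below 0.05. At 7 days every nose value lies left of 0 and every blood value except that of Tap1 lies right of it, while at 28 days Gbp2 and Ifi47 are the genes with the widest distance between the tissues.

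The direction in nose was then set against the direction in blood by testing the nose difference minus the blood difference on all 24 arrays. At 7 days 7 of the 8 genes passed, all of them lower in nose than in blood, against 5.65% of 20096 probe sets called lower and 10.8% called in either direction. Nose difference below 0 and blood difference above 0 occurred together in 7 of the 8 genes, as in 38.1% of all probe sets. The median of the 8 was -0.83, against -0.09 over all, and 8 of 8 values lay below 0, as did 63.8% of all. Because each tissue was measured against its own controls, the 2 differences share no array, though whether the tissues came from the same animals is not stated.

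Ifi47 had the largest tissue difference at 7 days, -1.48 ± 0.22 (adjusted p = 0.000905), made of a nose difference of -0.92 and a blood difference of 0.55. Irgm followed at -1.09 ± 0.30 (adjusted p = 0.0270), Psmb9 at -0.99 ± 0.22 (adjusted p = 0.00865) and Gbp2 at -0.84 ± 0.16 (adjusted p = 0.00361). Irf1 stood at -0.83 ± 0.18 (adjusted p = 0.00743), Psmb8 at -0.79 ± 0.19 (adjusted p = 0.0110) and Igtp at -0.57 ± 0.14 (adjusted p = 0.0127). For Irf1 nearly the whole value came from the nose, since its blood difference was 0.07. Tap1 was the member that did not pass, at -0.56 ± 0.24 (adjusted p = 0.137). Irgm lost its call in 5 of the 12 fits that left out 1 array, and 6 to 7 members passed in each of those fits.

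At 28 days the tissues differed for the guanylate-binding protein and 1 immunity-related GTPase. Gbp2 stood at -1.09 ± 0.16 (adjusted p = 0.000609), with a nose difference of -0.61 and a blood difference of 0.48. Ifi47 stood at -0.96 ± 0.22 (adjusted p = 0.0151), with a nose difference of -0.80 and a blood difference of 0.16. These were 2 of 8 genes, against 3.11% of all probe sets called lower and 5.1% in either direction, and both passed in each of the 12 fits that left out 1 array. With only the arrays compared in the fit, Ifi47 did not pass (adjusted p = 0.0856). Irgm and Psmb9 stood at -0.44 each, Irf1 at -0.22, Igtp at -0.17, Psmb8 at 0.18 and Tap1 at 0.35, and none of them passed. Values below 0 made up 6 of the 8 and 44.3% of all. Nose below 0 with blood above 0 held for 3 of the 8 genes (Ifi47, Gbp2 and Irgm), as for 22.8% of all probe sets.

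**Figure D3:**
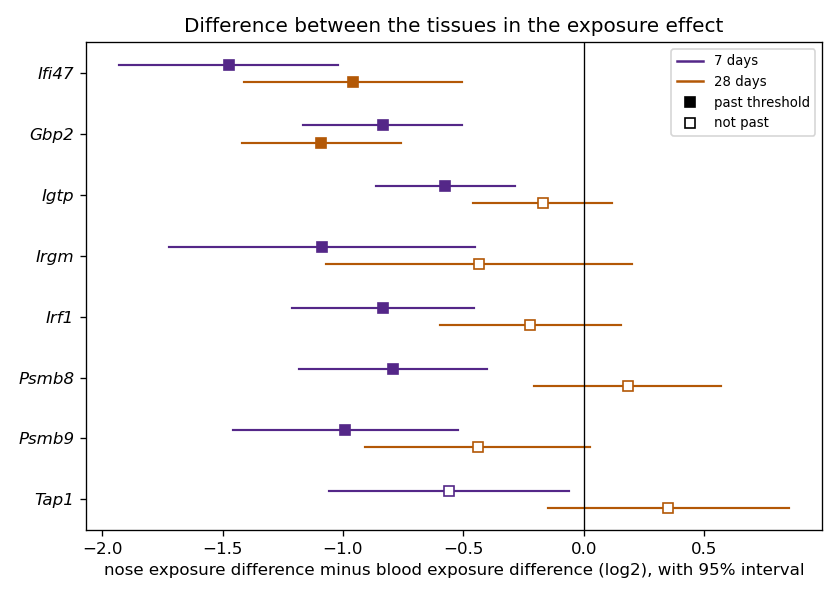
Nose exposure difference minus blood exposure difference (log2, horizontal axis) of each gene with its 95% interval, at 7 days (purple, upper line) and 28 days (orange, lower line), filled where the adjusted p was below 0.05. At 7 days 7 of the 8 genes are filled and lie left of 0, with Tap1 open, and at 28 days the filled genes are Ifi47 and Gbp2.

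Further genes of the interferon pathways were described from 6 lists of 84 gene symbols. For comparison these include type I interferon antiviral genes and constitutive proteasome subunits. In the 7 day nose, 3 of the 12 receptor and signalling genes tested were lower and 0 were higher. Of all probe sets, 7.84% were called lower and 8.43% higher there. Ifngr1, the ligand-binding chain of the receptor, measured 10.66, 11.08 and 11.15 in exposed noses, against 11.65, 11.56 and 11.51 in control noses, a difference of -0.61 ± 0.13 (adjusted p = 0.0123). Irf8, a transcription factor of macrophages and dendritic cells, fell by 0.72 (adjusted p = 0.00549), and Ciita, the master activator of MHC class II genes, fell by 0.44 (adjusted p = 0.0202). The ligand gene Ifng lay under the filter in nose and was not tested there. In blood Ifng differed by 0.07 ± 0.11 at 7 days (adjusted p = 0.834) and by 0.28 ± 0.11 at 28 days (adjusted p = 0.188).

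Of the other class I and immunoproteasome genes, 5 of 15 were lower and 0 were higher in the 7 day nose. The shares of all probe sets were 7.84% lower and 8.43% higher, and the list median was -0.29. Psmb10, the third inducible catalytic subunit, measured 8.70, 8.93 and 9.002 in exposed noses, against 9.38, 9.27 and 9.37 in control noses, a difference of -0.46 ± 0.08 (adjusted p = 0.00749). The class I heavy chain genes RT1-CE5 and RT1-M3-1, which have near relatives in the same gene cluster, fell by 0.56 and 0.47, the proteasome activator subunit Psme1 fell by 0.36 and the class I light chain B2m fell by 0.30. The 3 constitutive subunits that the inducible ones replace were not called: Psmb5 differed by 0.08, Psmb6 by -0.09 and Psmb7 by 0.04. Tap2, the partner of Tap1, differed by -0.29 (adjusted p = 0.102). At 28 days Psmb10 had the same nose difference of -0.46, which did not pass (adjusted p = 0.0945), although its 3 exposed arrays at 8.16, 8.10 and 8.08 lay well below its 3 control arrays at 8.58, 8.57 and 8.57. Psmb6 then differed by -0.78 (adjusted p = 0.149), with its control arrays spread over more than a log2 unit, and Tap2 by 0.02. In blood Psmb10 differed by 0.12 at 7 days and 0.02 at 28 days, and Tap2 by -0.13 at 7 days and -0.27 at 28 days, none of them past the test. The constitutive subunits were not called in blood at either day. At 7 days Psmb5 averaged 10.53 in exposed blood, against 10.04 in control blood. Its exposed arrays all lay above its control arrays, as was so for 19.5% of all probe sets. Psmb6 then averaged 9.43 in exposed blood, against 9.51 in control blood, and Psmb7 10.73, against 10.68.

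Among other GTPases 2 of the 10 listed genes were tested. In the 7 day nose 1 of them was lower, against 7.84% of all probe sets. Gbp5, a further guanylate-binding protein, measured 8.47, 8.64 and 8.80 in exposed noses at 7 days, against 9.42, 9.02 and 9.32 in control noses, a difference of -0.61 ± 0.13 (adjusted p = 0.0127). The other, Irgc, an immunity-related GTPase, differed by -0.03 ± 0.09 (adjusted p = 0.863). The nose minus blood value of Gbp5 was -0.85 (adjusted p = 0.00464) at 7 days and -0.61 (adjusted p = 0.0404) at 28 days, so that it was called at both days, as Ifi47 and Gbp2 were.

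The other effectors of interferon gamma were mixed in the 7 day nose. There 5 of 10 tested genes were lower and 1 was higher, against 7.84% and 8.43% of all probe sets. The chemokines Cxcl9 and Cxcl10, which draw T cells, fell by 0.62 and 0.42, the adhesion molecule Icam1 fell by 0.46, the invariant chain Cd74 fell by 0.45 and Ifi35 fell by 0.24. Gch1, which makes the cofactor of nitric oxide synthase, rose by 0.36 (adjusted p = 0.0189). Of the antiviral genes of type I interferon 1 of 18 fell, the nucleic acid sensor Zbp1 by 0.58, and 2 rose, Mx2 by 1.14 (adjusted p = 0.00318) and Cmpk2 by 0.71 (adjusted p = 0.00777). The counts of this antiviral list are near the 7.84% of all probe sets called lower and the 8.43% called higher. Of the 18 differences 15 lay below 0, and the list median was -0.42.

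In the 28 day nose and the 7 day blood, limma called 0 genes of these 6 lists, where background was 0.00456% and 0.475%. In blood at 28 days 1 of 13 receptor and signalling genes and 1 of 10 other effectors rose, with 0 called in the other 4 lists, against 3.95% of all probe sets called higher, a share that leaves these counts near the background. Cxcl10 measured 8.07, 8.93 and 8.38 in exposed blood, against 7.53, 7.94 and 7.64 in control blood, a difference of 0.76 ± 0.19 (adjusted p = 0.0358). Jak2, a kinase of the receptor, measured 10.17, 10.47 and 10.31 in exposed blood, against 9.84, 10.10 and 9.89 in control blood, a difference of 0.38 ± 0.09 (adjusted p = 0.0385). For Cxcl10 the nose minus blood value at 28 days was -1.38 ± 0.23 (adjusted p = 0.00222), beyond that of any of the 8 genes at that day. Cxcl10 was the 1 of 9 tested other effectors called lower, 3 of the 9 values lay below 0 and their median was 0.09. At 7 days nose minus blood was called lower in 5 of 15 class I genes and 2 of 12 receptor and signalling genes. It was called higher in 1 of 9 other effectors and 2 of 18 antiviral genes, and lower in 0 of either list. Of all probe sets, 5.65% were called lower and 5.1% higher at 7 days.

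**Figure D4:**
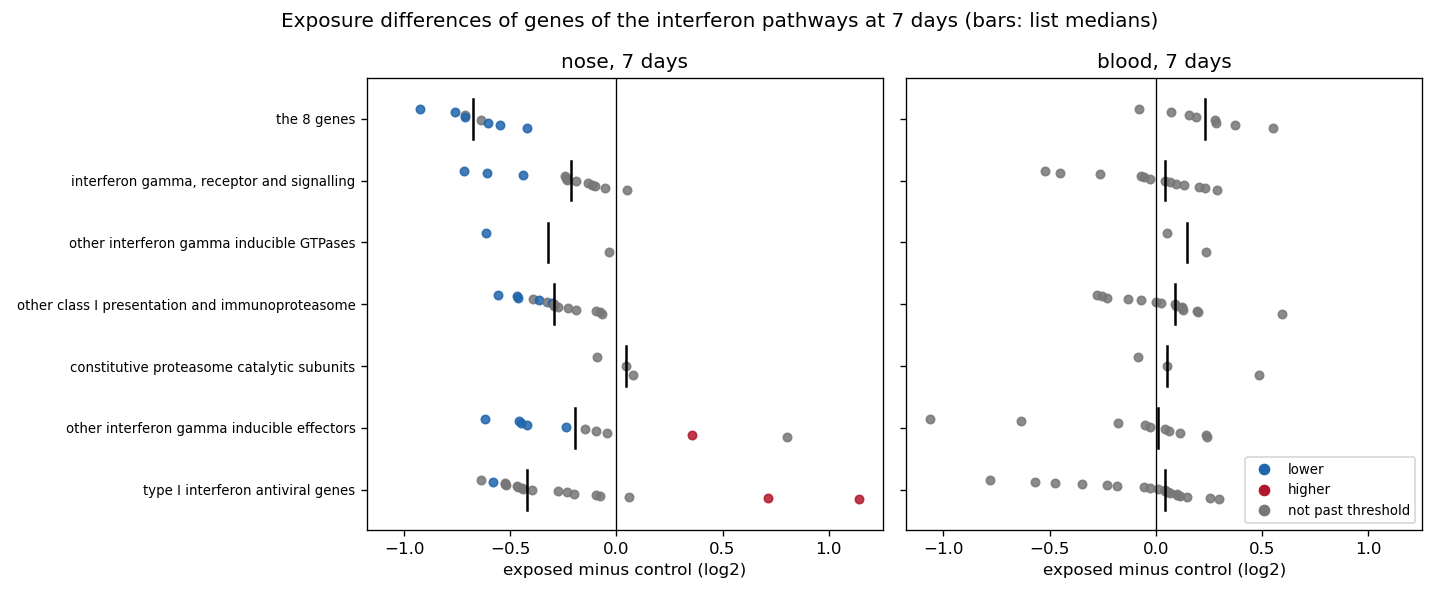
Exposed minus control difference at 7 days (log2, horizontal axis) of every tested gene of the 8 genes and 6 further lists, in nose (left) and blood (right), blue where called lower, red where called higher and grey otherwise, with a bar at each list median. In nose the blue points of the 8 genes and of the class I list lie left of 0, the constitutive proteasome subunits lie near 0, and in blood no point is coloured.

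The 8 genes were closely correlated with each other in nose, and in blood the correlation varied between genes. Within nose, after each day was centred on its mean, the correlation of a gene with the mean of the other 7 over 12 arrays lay between 0.82 (Tap1) and 0.99 (Irf1). Within blood it was 0.95 for Psmb9, 0.87 for Irgm and 0.75 for Ifi47, but 0.58 for Psmb8, 0.37 for Tap1 and -0.05 for Gbp2. These are descriptions: the arrays share their exposure groups, and each array its own scale. The genes most like the mean of the 8, by the same measure, were Tbxas1 (r = 0.991), RT1-Da (0.989), Pip5k1b (0.989), Fah (0.986) and RGD1559575 (0.984) among 12203 genes in nose. In blood they were Mfap3 (0.973), Nfu1 (0.963), Lsm10 (0.953), Rab1a (0.953) and Ppp2r1b (0.951) among 11709 genes. The 2 sets of 5 have no gene in common.

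Markers of other cell types moved in the same samples, and fewer cells of a type and less RNA per cell cannot be told apart in such bulk RNA. Of all probe sets in the 7 day nose, 7.84% were called lower and 8.43% higher. There 4 of 9 tested T cell markers were lower and 0 higher. The mean level of that list was 7.19 to 7.27 in exposed noses, against 7.47 to 7.72 in control noses. Of the macrophage and monocyte markers 7 of 12 were lower, with a mean of 8.76 to 8.97 in exposed noses, against 9.23 to 9.34 in control noses. For endothelium 8 of 9 were lower, with a mean of 8.57 to 8.89 in exposed noses, against 9.26 to 9.57 in control noses. Natural killer markers were lower in 1 of 6 (7.04 to 7.09 in exposed noses, against 7.34 to 7.51 in control noses) and B cell markers in 2 of 3. Cd3d, Cd2, Cd8b and Trat1 of the T cell list and Ncr1, Klrd1 and Gzma of the natural killer list lay under the filter in nose. Olfactory markers were higher in 6 of 14, with a mean of 11.53 to 11.88 in exposed noses, against 9.31 to 10.54 in control noses, and respiratory epithelial markers in 0 of 7, with 10.71 to 10.93 in exposed noses, against 10.96 to 11.06 in control noses. At 28 days no marker of these lists was called in nose, where 0.00456% of all probe sets were. The olfactory mean was then 10.05 to 10.43 in exposed noses, against 7.69 to 10.07 in control noses. The part of these cells in the nose values of the 8 genes was not tested.

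Of all probe sets in blood, 0.365% were called lower and 0.11% higher at 7 days, and 1.31% lower and 3.95% higher at 28 days. Natural killer markers were higher in 2 of 9 at 7 days, with a mean of 11.46 to 11.57 in exposed blood, against 10.82 to 11.13 in control blood. At 28 days they were higher in 6 of 9, with 10.78 to 11.25 in exposed blood, against 10.23 to 10.52 in control blood. Among neutrophil markers 1 of 9 was lower at either day, with a mean at 28 days of 6.10 to 6.68 in exposed blood, against 6.95 to 8.41 in control blood. Monocyte markers were lower in 1 of 12 at 28 days (7.53 to 7.87 in exposed blood, against 7.99 to 8.67 in control blood) and platelet markers higher in 3 of 5 (12.48 to 12.68 in exposed blood, against 11.99 to 12.27 in control blood). T cell markers were called in 0 of 13 at both days. The part of these cells in the rise of Gbp2 at 28 days was not tested.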

How the data were processed

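Gene expression was measured on 24 Affymetrix arrays. The deposited table holds normalized intensity on a linear scale, 1 value per probe set and array, handled in Partek per the submitters' processing notes; the normalization method, the array's genome build and the software version are not stated in the labels or headers. Values were taken to log2 without further normalization. Probe sets whose mean log2 lay below the 25th percentile of the tissue were left out. limma 3.58.1 in R 4.3.3 was fitted on the 12 arrays of each tissue with 4 group means, and on all 24 arrays with 8 group means for nose minus blood; tests were two-sided. Symbols came from the platform annotation: 15310 probe sets have 1 symbol (15279 matched to the reference table), 323 have several and 13581 are not listed. The named genes are the 8, the called genes of the other lists (at most the 4 of largest difference per list and comparison), Ifng, Psmb10, Tap2, the constitutive subunits Psmb5, Psmb6 and Psmb7, and the 5 genes nearest in pattern per tissue. An item of that rule is not reported here. Ifi35, Gch1, B2m and Irgc were added after their values were seen. The members and lists were chosen with earlier results of these data known.

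Same-numbered exposed and control arrays deviated together in the 28 day nose (correlations 0.154 to 0.247), and not in the other groups, where no label pairs them. Alternatives were other filters, normalizations, priors and sets of arrays, the replicate number as a block, and leaving out each array. Protein sequences were not used here. Figures were drawn with matplotlib 3.10.9.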

Additional observations from a re-analysis of the deposited data

Results flagged for a closer look

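The results of interest here are those in which the exposure difference in nose was tested against that in blood and the 2 tissues differed. At 7 days these were Ifi47 (-1.48), Irgm (-1.09), Psmb9 (-0.99), Gbp2 (-0.84), Irf1 (-0.83), Psmb8 (-0.79) and Igtp (-0.57), each on the log2 scale as nose minus blood and each lower in nose. At 28 days they were Gbp2 (-1.09) and Ifi47 (-0.96), again lower in nose. No explanation of these differences was tested.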

How the results depend on the processing

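Results below are counts past the test unless said otherwise, and the cause of each shift was not tested. Leaving out 1 array at a time, the members past the test numbered 2 to 7 in the 7 day nose, 0 to 1 in the 28 day nose, 0 to 1 for the change between days in nose, 0 to 0 in the 7 day blood, 0 to 1 in the 28 day blood, 0 to 0 for the change between days in blood, 6 to 7 for nose minus blood at 7 days and 2 to 2 at 28 days. The counts over all probe sets ranged, in the same order, 802 to 2658 (3564 with all arrays), 0 to 1081 (1), 1 to 2648 (22), 2 to 115 (104), 623 to 1258 (1154), 0 to 5 (0), 822 to 2124 (2161) and 518 to 2567 (1025). With the replicate block, members numbered 3 in the 7 day nose, and all probe sets 1795 in the 7 day nose, 0 in the 28 day nose, 82 for the change in nose, 2 in the 7 day blood, 392 in the 28 day blood and 481 for nose minus blood at 28 days. With it 6 members passed for nose minus blood at 7 days, and it changed no other count of members. With only the compared arrays, members numbered 0 in the 28 day blood and 1 for nose minus blood at 28 days (Gbp2, with Ifi47 lost), and all probe sets 6300 and 0 in the nose at 7 and 28 days, 463 and 1 in blood, and 5512 and 37 for nose minus blood. With all 24 arrays, members numbered 2 in the 28 day nose, and all probe sets 385 in the 28 day nose, 471 for the change in nose, 497 in the 7 day blood and 145 for the change in blood. Quantile normalization gave 1 member (Gbp2) and 42 probe sets in the 28 day nose, 1 for the change in nose and 264 in the 7 day blood. Centring on the array median gave 2 in the 28 day nose, 65 for the change in nose and 1 for the change in blood. A filter at the median gave 2367, 0, 1 (change), 179 in the 7 day blood, 1 (change in blood) and 1111 for nose minus blood at 7 days. Igtp and Psmb8, at percentiles 38.8 and 46.0 of the nose, were not tested in nose or in nose minus blood under that filter. No filter gave 145 for the change in nose and 55 in the 7 day blood, and the intensity trend gave 14 and 1 for the changes in nose and blood. In the 7 day nose, Ifi47, Gbp2 and Irf1 passed in 8 of the 8 alternatives other than leaving out single arrays. Psmb9 passed in 7 of 8, Igtp in 6 of the 7 that tested it and Psmb8 in 5 of 7. Tap1 passed in 2 of 8 and Irgm in 1 of 8. Signs near 0 turned: Tap1 in the 28 day nose was -0.015 after quantile normalization and -0.014 after centring, and without single arrays -0.15 to 0.21, and Psmb8 there -0.20 to 0.057. Leaving out arrays also spanned 0 for the change in nose of Ifi47 (-0.071 to 0.25) and Gbp2 (-0.14 to 0.038), for Irf1 in the 7 day blood (-0.00042 to 0.12), and in the 28 day blood for Igtp (-0.16 to 0.014), Irgm (-0.16 to 0.22) and Psmb9 (-0.21 to 0.068). No sign of a member turned under any of these alternatives in the 7 day nose or in nose minus blood. The mean over several probe sets of a gene was not run, since each gene has 1. Depth is not recorded for arrays; Igtp in the 28 day nose, near the filter, is the member limited most by signal.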
